A study of Mus musculus with 24 samples.

Results

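The 4 arrays lettered C of days 4, 5, 6 and 7 were set against the 8 arrays lettered A and B of the same days, 12 arrays out of 24 in the series. The letter and the day stand in the title of each sample and assign the arrays, while the contrast itself was chosen with earlier results of these data known. The cells were HBC-3, a line of mouse hepatoblasts, the progenitors of fetal liver from which hepatocytes and bile duct cells both arise. On every array the Cy5 target came from cells grown on Matrigel, a basement membrane gel, for the stated number of days, and a Cy3 target of undifferentiated cells of the line served as common reference. The 9 arrays of days 1 to 3 and the 3 arrays of day 0, with letters A, B and C on each day, are used only for comparison.

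The groups were thus late C (days 4 to 7, letter C, 4 arrays), late A and B (days 4 to 7, 8 arrays), early C (days 1 to 3, 3 arrays), early A and B (days 1 to 3, 6 arrays) and day 0 (3 arrays). All groups share the line, the gel and the reference, and all had been freed of their STO fibroblast feeder cells by trypsin and replating, so feeder cells may have been carried along in any of them. RNA was amplified before labelling with random primers, which was the same for all groups as far as the labels say. What a letter stands for is not given in the sources used here. If a letter marks 1 series of cultures followed over days, the 4 C arrays are 1 such series, and the letter and the culture cannot be told apart. The p-values therefore rest on the spread of these 12 arrays alone, and that spread may be technical.

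Values are log2 of sample over reference, centred on each array's median. Base 2 and the sample as numerator are likely from the range of values and the dyes in the labels but are not stated with the deposited table. With an inverted ratio every difference given here would change sign. A value of 0 is the level in the reference of undifferentiated cells, relative to the array median. Above or below undifferentiated cells means above or below this 0. Single genes could lie off 0 on the day 0 arrays too. A difference between groups is in log2 units.

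The question was what sets the late C arrays apart in genes of proliferation, the cytoskeleton and Notch signalling. In dividing cells, factors of the E2F family switch on genes of DNA replication in late G1 and S phase. Genes of mitosis follow in G2 and M phase and often carry, near their start, CCAAT boxes and an element called CHR (cell cycle genes homology region), through which a repressor complex holds them down in resting cells. The actin cytoskeleton, with its cross-linkers, severing proteins and myosin motors, meets the matrix at focal adhesions, whose integrins bind laminins and collagens of a gel such as Matrigel. In Notch signalling, ligand binding lets the ADAM10 protease and then gamma-secretase cut the receptor, and the freed part enters the nucleus and turns on targets such as Hes1. In fetal liver, Notch signalling in hepatoblasts near the portal vein favours bile duct fate.

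Promoter stretches of 4 cell cycle genes are shown because genes of this class were found on both sides of the comparison. Mki67 and Top2a were higher in late C arrays than in late A and B arrays, and Mcm2 and Ube2c were lower. Each is the 150 bases before the start used for the RefSeq promoter window, 5′ to 3′ on the gene's strand (GRCm38.p6). That start lies inside the outermost annotated bounds of the gene for Mki67 and Top2a, so that 71 and 10 bases of their stretches fall within the annotated gene, and 0 for the other pair. They lie at chr7:135716380-135716529 (minus strand) for Mki67, chr11:99024190-99024339 (minus) for Top2a, chr6:88898781-88898930 (minus) for Mcm2 and chr2:164769779-164769928 (plus) for Ube2c. Capitals mark CCAAT and the CHR letters TTTGAA or TTCGAA, read on both strands.
Mki67: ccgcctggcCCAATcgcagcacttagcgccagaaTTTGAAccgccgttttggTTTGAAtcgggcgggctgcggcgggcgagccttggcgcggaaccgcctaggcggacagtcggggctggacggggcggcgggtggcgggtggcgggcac
Top2a: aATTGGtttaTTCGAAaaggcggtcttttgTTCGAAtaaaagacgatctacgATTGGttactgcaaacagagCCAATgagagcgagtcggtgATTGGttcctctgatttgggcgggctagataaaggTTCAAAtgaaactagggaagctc
Mcm2: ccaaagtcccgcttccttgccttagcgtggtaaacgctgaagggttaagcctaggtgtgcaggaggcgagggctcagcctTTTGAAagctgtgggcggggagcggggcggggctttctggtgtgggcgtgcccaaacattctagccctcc
Ube2c: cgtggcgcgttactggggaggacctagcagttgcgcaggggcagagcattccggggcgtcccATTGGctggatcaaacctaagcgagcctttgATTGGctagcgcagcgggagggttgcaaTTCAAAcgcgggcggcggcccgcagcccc
CHR letters and CCAAT boxes were thus present in promoters of genes that moved either way. In the whole RefSeq window of 300 bases (250 before the start and 50 after), CHR letters were found in 8 of 11 proliferation genes higher in late C, 7 of 19 lower in late C and 20 of 46 not called, against 19.4% of 27025 mouse genes with a window. CCAAT was found in 8, 13 and 29 of the same genes, against 37.9% of all windows. A match describes letters only, and no CHR match shared a base with a CCAAT match in the stretches shown.

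The late C arrays correlated more closely with each other than with the late A or B arrays. Correlations of log2 ratios across features were 0.808 to 0.967 among the 4 late C arrays (6 pairs, median 0.905) and 0.398 to 0.644 between late C and late A or B arrays (32 pairs, median 0.519). Grouping by letter was not particular to C. Late A arrays correlated with each other at 0.806 to 0.915 (median 0.854). Late B arrays did so at 0.570 to 0.918 (median 0.733), and at 0.8475 to 0.918 (median 0.895) without array B of day 6. Late A with late B arrays correlated at a median of 0.721, above that of late C with late A or B. A and B arrays of the same day correlated at 0.519 to 0.779. Such correlations run across features and are given as a description. On days 1 to 3 the C arrays correlated with the A or B arrays of their own day at 0.794 to 0.921, and A with B at 0.750 to 0.801. The arrays of day 3 correlated with late C arrays at 0.538 to 0.698 (median 0.637) and with late A and B arrays at 0.491 to 0.830 (median 0.757). All 66 pairs among the 12 late arrays correlated above 0, so no late array has a turned sign relative to another.

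Some arrays stood apart within their group. Array B of day 6 correlated with the other 11 late arrays at only 0.462 to 0.618. Array C of day 6 correlated with the other late C arrays at 0.808 to 0.874. Late C arrays carried a wider spread of log2 ratios, with an SD of 0.998 to 1.06 against 0.669 to 0.946 on late A and B arrays, 0.558 to 0.827 over days 1 to 3 and 0.332 to 0.473 on day 0. Values were present for 14202 to 16613 of 24157 features on late C arrays and for 12328 to 18327 on late A and B arrays. Arrays C of days 4 and 5, the closest pair, shared no identical value among 15098 features and were counted as separate.

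**Figure D1:**
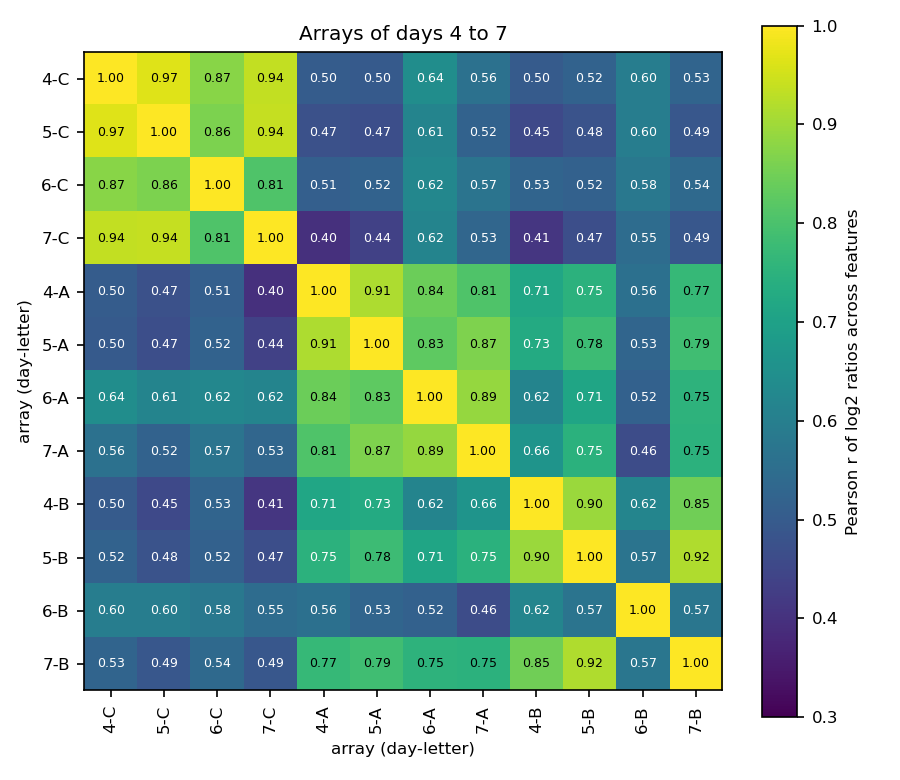
Pearson correlation (colour and printed value) of log2 ratios across features between each pair of the 12 arrays of days 4 to 7, ordered C, A and B, labelled by day and letter. The C block stands at 0.808 to 0.967, while C against A or B lies at 0.398 to 0.644, and array 6-B lies at 0.462 to 0.618 against all others.

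Of 9471 units tested (5262 genes and 4209 features without a gene name), 3984 or 42.1% differed between late C and late A and B arrays at an adjusted p under 0.05 (limma with day as a block), 1813 higher and 2171 lower in C. Among the genes 2182 were called, 41.5% of those tested, 1031 of them higher (19.6%) and 1151 lower (21.9%). The median size of a difference was 0.476 over all units, and 1648 units differed by more than 1. For 1388 genes (26.4% of those tested) no late C array overlapped the range of the late A and B arrays, 700 above it and 688 below it. With arrays scaled to the same spread 2983 units were called, and with only days 6 and 7 in the fit 184, all of them among the 3984. With only days 4 and 5, and as many arrays, 3455 were called. Leaving out 1 array gave 2506 to 4708 units, the fewest without array C of day 5 and 2529 without array C of day 4. The most came without array B of day 6.

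The A and B arrays of the same days, set against each other over the same units, gave 14 calls (0.148%), 6 higher in A and 8 lower, and 2365 at an unadjusted p under 0.05. Their median size of difference was 0.291. That comparison depended on day 6: without its arrays there were 793 calls, and with day as a block leaving out either of them removes the pair. There were 0 calls when any 1 of the 4 arrays of days 4 and 5 was left out. The comparison of C with A and B rests on 12 arrays and that of A with B on 8, so the numbers of calls are not on equal terms.

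On days 1 to 3 the C arrays did not stand apart by this test. Of 13336 units, 0 (0%) passed in C against A and B (limma, smallest adjusted p 0.119), 448 had an unadjusted p under 0.05, and the median size of a difference was 0.109. The difference between the late and the early C effect, tested as an interaction in 1 fit over days 1 to 7, passed for 2606 of 9272 units (28.1%), 1221 upward and 1385 downward. Of these, 2549 were also called late, 97.8% of the interaction calls and 65.1% of the 3918 late calls among the same units. With arrays scaled the interaction passed for 1383 units and with quantile normalization for 1499. Within days 4 to 7 no steady drift was detected: the change per day in the C difference passed for 0 of 9471 units (0%, limma), with 44 at an unadjusted p under 0.05. On day 0, with 1 array per letter and hence no test, array C also stood apart: it correlated with A at -0.343 and with B at 0.084, while A and B correlated at 0.755. Actb, for example, stood at -0.67 on array C of day 0, against 1.40 on A and 1.0 on B.

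**Figure D2:**
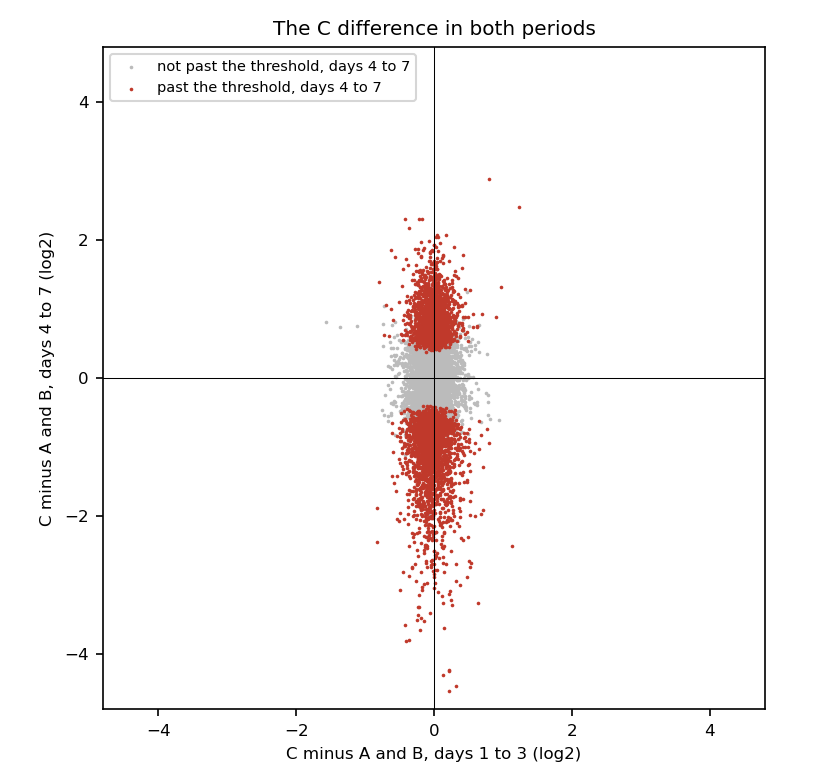
Difference of C minus A and B arrays on days 4 to 7 (vertical, log2) against the same difference on days 1 to 3 (horizontal, log2), 1 point per unit tested in both, with red for those past the threshold on days 4 to 7. The cloud is tall and narrow: the median size is 0.476 late and 0.109 early.

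Units called higher in late C had a median log2 ratio of 0.86 on the late C arrays, 0.00 on late A and B arrays and 0.12 on days 1 to 3. Units called lower had medians of -0.99 on late C arrays, 0.08 on late A and B arrays and 0.03 on days 1 to 3. These are medians over units on both sides of 0, and single called genes lay far from 0 on A and B arrays too. The C mean was farther from 0 than the A and B mean in 80.5% of the units called higher and 76.1% of those called lower, against 67.3% of all units tested.

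The genes that rose most in late C arrays, among those with values on all 12 arrays and no overlap, included mitotic and mitochondrial ones. So did the leading falls, with Nek6 and Ybey. Mki67, the gene of the proliferation marker Ki-67, stood at 0.85, 0.51, 0.24 and 0.40 on the C arrays of days 4 to 7, against -1.90 to -1.64 (median -1.83) on the 8 A and B arrays. Its difference was 2.31 ± 0.16 (SE, adjusted p = 9.89e-06). All 4 C arrays lay above 0 and all 8 A and B arrays far below it. The arrays of day 0 stood at 0.02, 0.52 and 0.25, and only array C of day 4 lay above all of them. On days 1 to 3 Mki67 had spanned -2.11 to 0.06 with a C difference of -0.42. Sgo1, whose protein shugoshin guards cohesin at centromeres, stood at 2.21, 2.33, 2.24 and 2.44 on C arrays, against 0.04 to 0.48 (median 0.28) on A and B arrays, a difference of 2.04 ± 0.15 (adjusted p = 9.89e-06). The 4 C arrays lay within a narrow band well above the others. Fzd1, a Wnt receptor, stood at 4.14, 4.34, 3.06 and 4.09 on C arrays, against 1.38 to 2.90 (median 1.89) on A and B arrays, a difference of 1.87 ± 0.29 (adjusted p = 0.000483). Fzd1 was thus above undifferentiated cells on every late array and higher still in C, while it stood at -1.19, -0.92 and -0.10 on day 0.

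The other leading rises had C arrays within narrow ranges. Pgrmc1, a heme-binding membrane protein gene, stood at 1.55 to 1.87 on C arrays and -1.32 to 0.25 on A and B arrays, a difference of 2.07 ± 0.27. Iars2, the mitochondrial isoleucyl-tRNA synthetase, differed by 1.84 ± 0.23. Letm1, a mitochondrial cation transport protein, differed by 1.82 ± 0.22, and Mccc1, a mitochondrial enzyme subunit of leucine breakdown, by 1.72 ± 0.17. The remaining leaders were A930006K02Rik, Phf14, a PHD finger protein gene, and Pxylp1, a phosphatase of glycosaminoglycan synthesis, each at 1.70. The 2 features of Phf14 gave 1.19 and 2.21. Neither of the 2 features of Pxylp1 had enough values to test alone, so its average may rest on different features on different arrays. All of these leading rises stayed called with arrays scaled, but the differences shrank to 1.29 for Sgo1, 1.13 for A930006K02Rik, 1.05 for Phf14, 0.94 for Mccc1, 0.77 for Fzd1 and 0.65 for Pxylp1.

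The leading falls were larger than the leading rises. Nek6, a kinase of mitotic spindle assembly, stood at -3.57, -5.04, -2.36 and -4.77 on C arrays, against -0.69 to 1.06 (median 0.41) on A and B arrays, a difference of -4.25 ± 0.45 (adjusted p = 3.78e-05). Raly, an RNA-binding protein of the hnRNP family, stood at -4.11, -3.62, -3.28 and -2.47 on C arrays, against -0.37 to 0.75 (median 0.12), a difference of -3.57 ± 0.28 (adjusted p = 1.18e-05). In both genes the A and B arrays lay on both sides of the undifferentiated level, with a mean of 0.77 on A and -0.14 on B for Nek6. Hdgf, hepatoma-derived growth factor, stood at -3.99, -5.03, -3.23 and -3.72 on C arrays, against -1.52 to -0.14 (median -0.39), a difference of -3.48 ± 0.31. Bicc1, an RNA-binding protein gene whose loss in mice gives cysts of kidney and bile ducts, stood at -1.16, -1.24, -0.41 and -1.42 on C arrays, against 1.17 to 2.77 (median 2.07), a difference of -3.14 ± 0.29 (adjusted p = 2.21e-05). Bicc1 was therefore below 0 on every late C array and above 0 on every late A and B array. On day 0 it stood at 0.00, -0.49 and -0.57, and array C of day 6 (-0.41) lay within that range.

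Among the other leading falls, Cuedc2, a ubiquitin-binding protein gene, differed by -3.52, Adgra2, an adhesion receptor, by -3.32, Ptges3, the Hsp90 co-chaperone p23, by -3.16 and Bst2, the interferon-induced antiviral protein tetherin, by -3.07. Ybey, an RNase of mitochondrial ribosome assembly, differed by -2.98, and Cyba, a subunit of the NADPH oxidase, by -2.89. Adgra2 had 2 features with values, at -3.58 and -2.92. In Ptges3 the A and B arrays spanned -1.37 to 1.46, with array B of day 6 at the top and the next highest at -0.68. With arrays scaled, Hdgf differed by -2.20, Ptges3 by -1.87, Ybey by -1.82 and Bst2 by -1.70, and all stayed called.

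**Figure D3:**
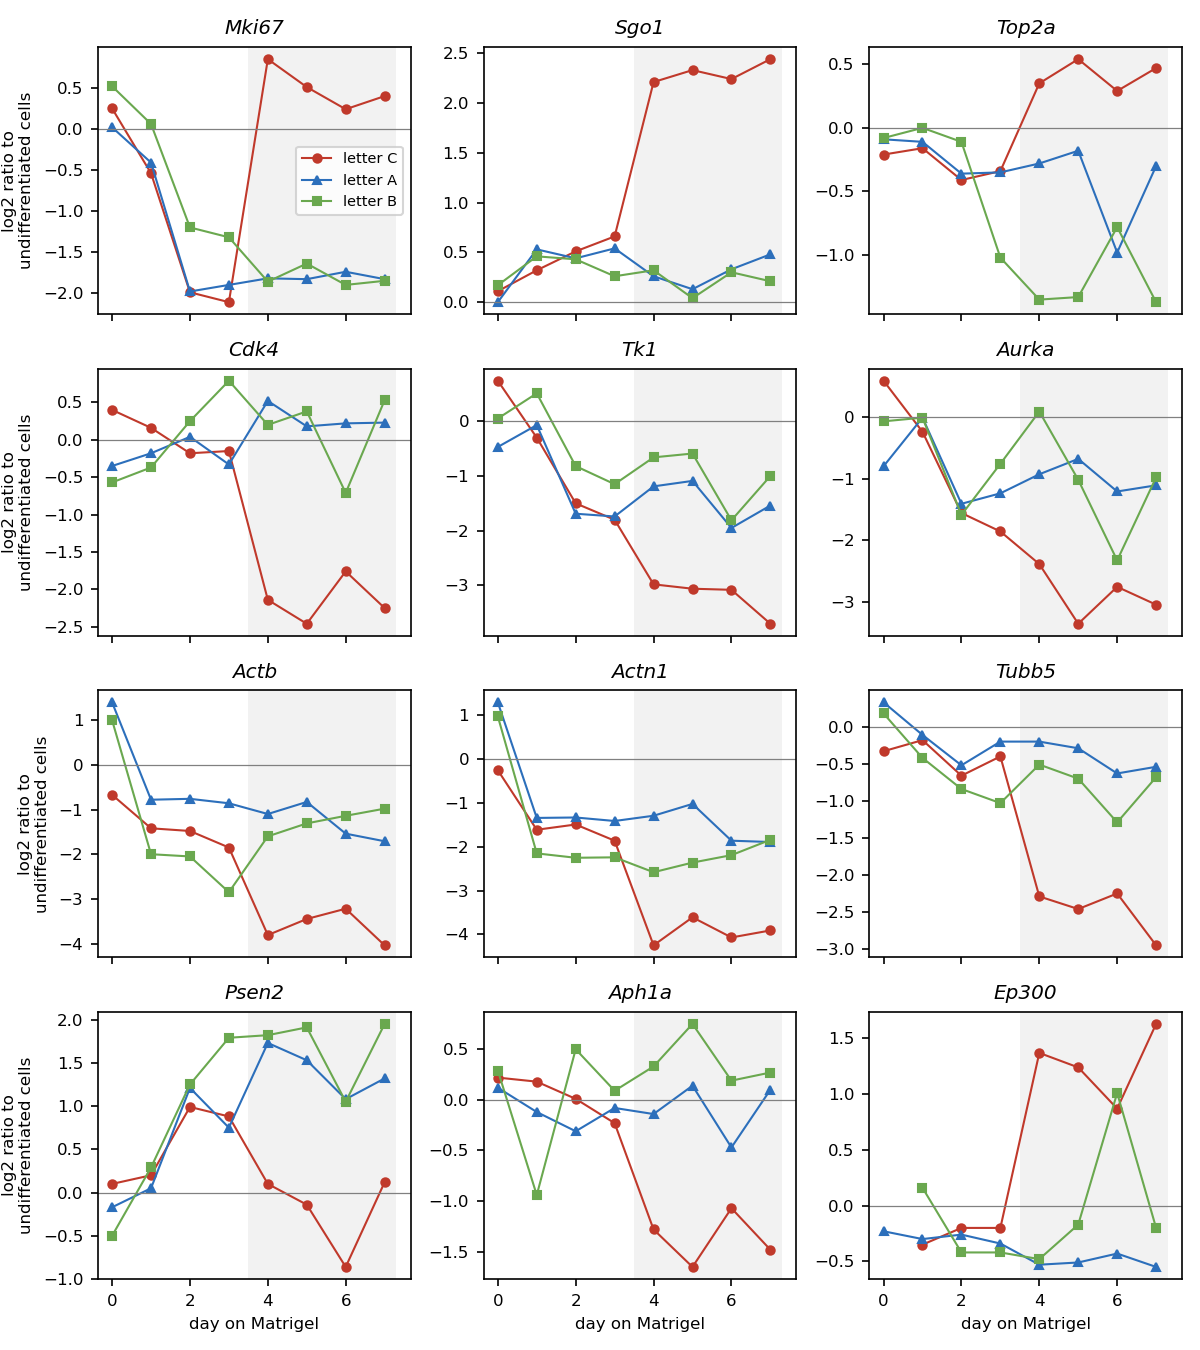
Log2 ratio to undifferentiated cells (vertical) by day on Matrigel (horizontal, days 0 to 7) for 12 genes, 1 point per array, with circles for letter C, triangles for A and squares for B, and days 4 to 7 shaded. On days 4 to 7 every C circle lies above the A and B points of Mki67, Sgo1 and Top2a and below those of the other genes except Ep300, where array B of day 6 (1.01) overlaps the C arrays.

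Proliferation genes changed in both directions. Of 161 genes in 3 lists (DNA replication, mitosis and spindle, cyclins with their kinases and G1/S control) 91 were tested, and 14 rose, 22 fell and 55 did not pass, with a median of -0.03 against -0.01 over all genes. The share called was 39.6%, near the 41.5% of all genes tested. Arrays did not overlap for 10 of these 91 genes upward and 14 downward, beside 700 and 688 of all 5262 genes tested (26.4%). The lists were chosen with earlier results of these data known.

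Of 29 DNA replication genes tested 8 fell and 1 rose, with a median of -0.09, and the share called, 31.0%, was below the 41.5% of all genes. Tk1, thymidine kinase of the nucleotide salvage pathway, stood at -2.98, -3.06, -3.08 and -3.70 on C arrays, against -1.95 to -0.59 (median -1.14) on A and B arrays, a difference of -1.98 ± 0.22 (adjusted p = 5.20e-05). Mcm2, a subunit of the replicative helicase, stood at -2.01, -2.26, -2.08 and -2.30 on C arrays, against -1.72 to -0.71 (median -0.89) on the 7 A and B arrays with a value, a difference of -1.18 ± 0.22. In both genes the A and B arrays were themselves below undifferentiated cells, and the C arrays lower again. Rnaseh2a, which removes RNA from DNA, differed by -1.41 ± 0.23, and Rpa3, a subunit of the single-strand binding protein, by -1.20 ± 0.22. Rpa3 lost its call with arrays scaled (-0.58) or quantile normalized (-0.49), and the list median then turned to 0.09 and 0.12. Pcna, the sliding clamp, had values on 3 C arrays (-1.08, -1.32 and -0.73) and 2 of the A and B arrays (-1.24 and -1.21), too few to test.

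Mitosis genes went both ways: 10 rose and 6 fell of 40 tested, with a median of 0.04 and 40% called. Sgo1 and Nek6, described above, are not on this list. Besides Mki67, Cenpf, a kinetochore protein gene, stood at -0.60, -0.78 and -0.59 on C arrays of days 4, 5 and 7, with no value on day 6, against -2.44 to -1.19 (median -2.23) on 7 A and B arrays, a difference of 1.58 ± 0.26 (adjusted p = 0.00116). Ncapg, a condensin subunit, differed by 1.24 ± 0.23. Top2a, the topoisomerase that untangles chromosomes, stood at 0.35, 0.54, 0.29 and 0.47 on C arrays, against -1.37 to -0.18 (median -0.88), a difference of 1.23 ± 0.27 (adjusted p = 0.00351). Top2a was above 0 on every late C array and below 0 on every late A and B array. On day 0 it stood at -0.09, -0.08 and -0.21, which array A of day 5 (-0.18) overlapped. Aurka, a kinase of spindle poles, went the other way, at -2.39, -3.36, -2.76 and -3.05 on C arrays, against -2.33 to 0.09 (median -1.0), a difference of -1.87 ± 0.28 (adjusted p = 0.000373). The median of this list was 0.22 with arrays scaled and 0.31 with quantile normalization, where that of all units was -0.017 and 0.022.

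Of 22 tested cyclins, kinases and G1/S regulators 8 fell and 3 rose, with a median of -0.21 and 50.0% called. Cdk4, the kinase partner of D-type cyclins, stood at -2.14, -2.46, -1.76 and -2.25 on C arrays, against -0.71 to 0.53 (median 0.23), a difference of -2.35 ± 0.23 (adjusted p = 2.73e-05). Among the A and B arrays the lowest value was on array B of day 6 and the next lowest 0.18. Tfdp1, the dimer partner of E2F factors, stood at -1.94, -1.92, -2.91 and -1.94 on C arrays, against -1.01 to 0.12 (median -0.25), a difference of -1.83 ± 0.28. For Tfdp1 the A arrays averaged 0.08 and the B arrays -0.78. Cks2, a kinase subunit, differed by -0.91 ± 0.17, but only by -0.25 with arrays scaled and -0.10 with quantile normalization, where it was not called. Myc differed by -0.81 ± 0.28 (adjusted p = 0.0395), with overlapping arrays (-1.16 to -0.85 on C and -0.89 to 0.27 on A and B). Its call was lost with arrays scaled (-0.49), against B arrays alone (-0.32), and without array C of day 4, 5 or 7 (-0.96, -0.61 and -0.88). It was also lost without array A of day 4, 5 or 7 or array B of day 7 (-0.66, -0.61, -0.82 and -0.82). The list median was -0.03 with arrays scaled and 0.09 with quantile normalization. Ccnd1, Ccnb1 and Cdkn1a were not listed under these symbols.

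Actin genes carried the largest cytoskeletal differences. Over 4 cytoskeletal and adhesion lists and the Hippo pathway, 92 of 188 genes were tested, and 15 rose, 24 fell and 53 did not pass (median -0.23, 42.4% called). Of 38 actin and actin-binding genes 11 fell and 5 rose, with a median of -0.43 and 42.1% called. Actb, cytoplasmic beta-actin, stood at -3.81, -3.45, -3.22 and -4.04 on C arrays, against -1.71 to -0.83 (median -1.22) on A and B arrays, a difference of -2.35 ± 0.21 (adjusted p = 1.65e-05). Actn1, the cross-linker alpha-actinin-1, stood at -4.25, -3.61, -4.07 and -3.91 on C arrays, against -2.58 to -1.02 (median -1.87), a difference of -2.08 ± 0.27 (adjusted p = 0.000145). Both were below undifferentiated cells on every late array, and lowest on C. Cfl1, the severing protein cofilin-1, differed by -2.02 ± 0.33, and Dstn, its relative destrin, by -1.95 ± 0.37. For Dstn, the C arrays at -3.03 to -2.73 met array B of day 6 at -2.79, while the other A and B arrays lay at -1.25 or higher. Actg1, gamma-actin, whose sequence is close to that of Actb so that a feature may pick up both, stood at -1.82 to -1.24 on C arrays and -2.68 to -0.31 on A and B arrays and did not pass (-0.45 ± 0.37, adjusted p = 0.359). It passed against A arrays alone (-1.03) and without array B of day 6 (-0.72). With arrays scaled Actb differed by -1.27 and Actn1 by -0.97, both still called, and the list median was -0.10. It was -0.65 against A and -0.15 against B arrays.

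Microtubule genes showed both directions, with 5 rises and 3 falls among 23 (median -0.08, 34.8% called). Tubb5, a beta-tubulin, stood at -2.29, -2.46, -2.25 and -2.95 on C arrays, against -1.29 to -0.20 (median -0.58), a difference of -1.88 ± 0.20 (adjusted p = 4.10e-05). Its 2 features agreed in sign but not in size, at -3.17 and -0.60. Tubb6, another beta-tubulin, differed by -1.14 ± 0.20, and by -0.32 with no call after quantile normalization. Tubulin genes are close in sequence, so their features may share signal. Dync1h1, the heavy chain of cytoplasmic dynein, rose by 1.09 ± 0.21, and Katna1, a microtubule-severing ATPase, by 1.03 ± 0.21. Neither overlapped between groups. Of 4 intermediate filament and plakin genes, Macf1, a linker of actin and microtubules, rose by 1.27 ± 0.25. Vim, vimentin, stood at 0.74, 0.57, -0.17 and 0.69 on C arrays, against -1.14 to 0.50 (median -0.06) on 7 A and B arrays, and did not pass (0.51 ± 0.31, adjusted p = 0.215). It passed against B arrays alone (1.17) and without the arrays of day 6 (0.80). Krt8 had values on too few arrays to test.

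At focal adhesions 7 of 18 genes fell and 3 rose (median -0.24, 55.6% called). Itgb1, the common beta-1 integrin chain, stood at -1.68, -1.98, -1.22 and -1.67 on C arrays, against -1.09 to -0.06 (median -0.14), a difference of -1.36 ± 0.22 (adjusted p = 0.000664). Its 2 features gave -2.03 and -0.70. Pxn, the adaptor paxillin, stood at -0.30, -0.87 and 0.04 on 3 C arrays, against 0.37 to 1.51 (median 1.29), a difference of -1.45 ± 0.30. Zyx, the adhesion protein zyxin, differed by -1.62 ± 0.44 (adjusted p = 0.0106), with every C array below every A and B array. For Zyx the A arrays averaged -2.08, the B arrays -3.45 and the C arrays -4.39. Its A minus B difference of 1.37 (limma, adjusted p = 0.0633) was thus near the size of its C difference. Zyx was already below undifferentiated cells by -3.99 to -2.32 on days 1 to 3. Zyx lost its call with arrays scaled (-0.48) and without array C of day 4 (-1.48) or day 5 (-1.52). Itga3, a laminin-binding integrin chain, differed by -1.60 ± 0.43 and by -0.82 with no call when arrays were scaled. It averaged -0.51 on A, -1.92 on B and -2.82 on C arrays, with an A minus B difference of 1.41. The list median was -0.60 against A arrays and 0.06 against B arrays, so its sign depended on which letter C was set against, and it was -0.43 without array B of day 6. In the Hippo pathway, which reads out actin tension and adhesion, 3 of 9 genes fell and 1 rose (44.4% called, beside 41.5% of all genes). Tead1, the DNA-binding partner of YAP, rose by 0.66 ± 0.18, a call lost without array C of day 4 (0.58), and Amotl1, an angiomotin, fell (-0.78), a call lost without array C of day 5 (-0.71) or day 7 (-0.69). The 3 features of Amotl1 lay between -1.20 and -0.08. The median of the Hippo list was -0.17, and 0.09 against B arrays alone.

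Notch signalling could be read only below the receptor. None of the 12 ligands and receptors was tested. Notch1 and Notch2 were not listed under these symbols, nor were Hes1 and Rbpj, and Jag1 had no value on a late array. Of 25 genes of receptor processing and modification 12 were tested, and 4 fell and 0 rose (median -0.22), with the tested share of calls at 33.3%. Of the 4 that fell, all but Adam10 belong to gamma-secretase. Of its other tested subunits, Ncstn, nicastrin, differed by 0.75 ± 0.28 (adjusted p = 0.0509) and Aph1b, an alternative scaffold subunit, by 0.09 ± 0.22 (adjusted p = 0.776), and neither passed. Psen2, its catalytic presenilin-2, stood at 0.10, -0.14, -0.86 and 0.12 on C arrays, against 1.05 to 1.95 (median 1.63) on A and B arrays, a difference of -1.74 ± 0.17 (adjusted p = 2.56e-05). Aph1a, a scaffold subunit, stood at -1.28, -1.65, -1.07 and -1.48 on C arrays, against -0.47 to 0.75 (median 0.17), a difference of -1.51 ± 0.22 (adjusted p = 0.000322). Neither gene overlapped between the groups. Psen2 stood at 0.05 to 1.79 (median 0.88) on days 1 to 3, and 3 of the 4 late C arrays lay within 0.14 of the undifferentiated level. Psenen, the subunit that activates the complex, stood at -0.61, -0.79, -0.40 and -1.08 on C arrays, against -0.53 to 1.28 (median 0.45), with overlap and a difference of -1.15 ± 0.32 (adjusted p = 0.0124). It averaged -0.11 on A, 0.96 on B and -0.72 on C arrays. Its A minus B difference was -1.07 (limma, adjusted p = 0.0520), near the size of its C difference. The call of Psenen was lost without array C of day 4, 5 or 7 (-1.08, -1.06 and -1.07).

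Adam10, the protease that makes the first cut in the receptor, stood at -1.45, -1.90, -1.45 and -1.16 on C arrays, against -0.92 to 0.77 (median -0.66), a difference of -0.96 ± 0.26 (adjusted p = 0.0103). Its 3 features lay between -1.09 and -0.82, and it lost its call with arrays scaled (-0.49) and without array C of day 5 (-0.90). Adam17, a related protease, stood at 0.09 to 0.35 on C arrays and -0.32 to 0.85 on A and B arrays and did not pass (-0.13 ± 0.20, limma, adjusted p = 0.633). The only 1 of its 3 features with enough values to test alone gave 0.42, opposite in sign to the average. Of 30 nuclear factors and targets 8 were tested, and 3 fell and 1 rose (median -0.05, 50% called). Ep300, a histone acetyltransferase and coactivator of Notch among many other factors, stood at 1.37, 1.24, 0.87 and 1.63 on C arrays, against -0.55 to 1.01 (median -0.46), a difference of 1.51 ± 0.28 (adjusted p = 0.00134). The overlap came from array B of day 6 alone, as the next highest A and B value was -0.17. The corepressors Spen and Ctbp1 fell, with differences of -0.90 and -0.83. The Spen features gave -1.62 and -0.19. Hes6, a Hes-family gene, stood at 0.99, 1.32, 1.38 and 0.88 on C arrays, against 0.36 to 1.11 (median 0.80), and did not pass (0.33 ± 0.20, adjusted p = 0.203). Dtx4, a Deltex ubiquitin ligase, was high on every late array with a value, at 3.17, 3.70, 3.62 and 3.86 on C arrays and 3.52 to 4.90 (median 4.14) on the 6 A and B arrays with a value, too few to test. Over all 67 Notch genes, 20 were tested, with 7 falls and 1 rise. The share called, 40%, was near the 41.5% of all genes tested.

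**Figure D4:**
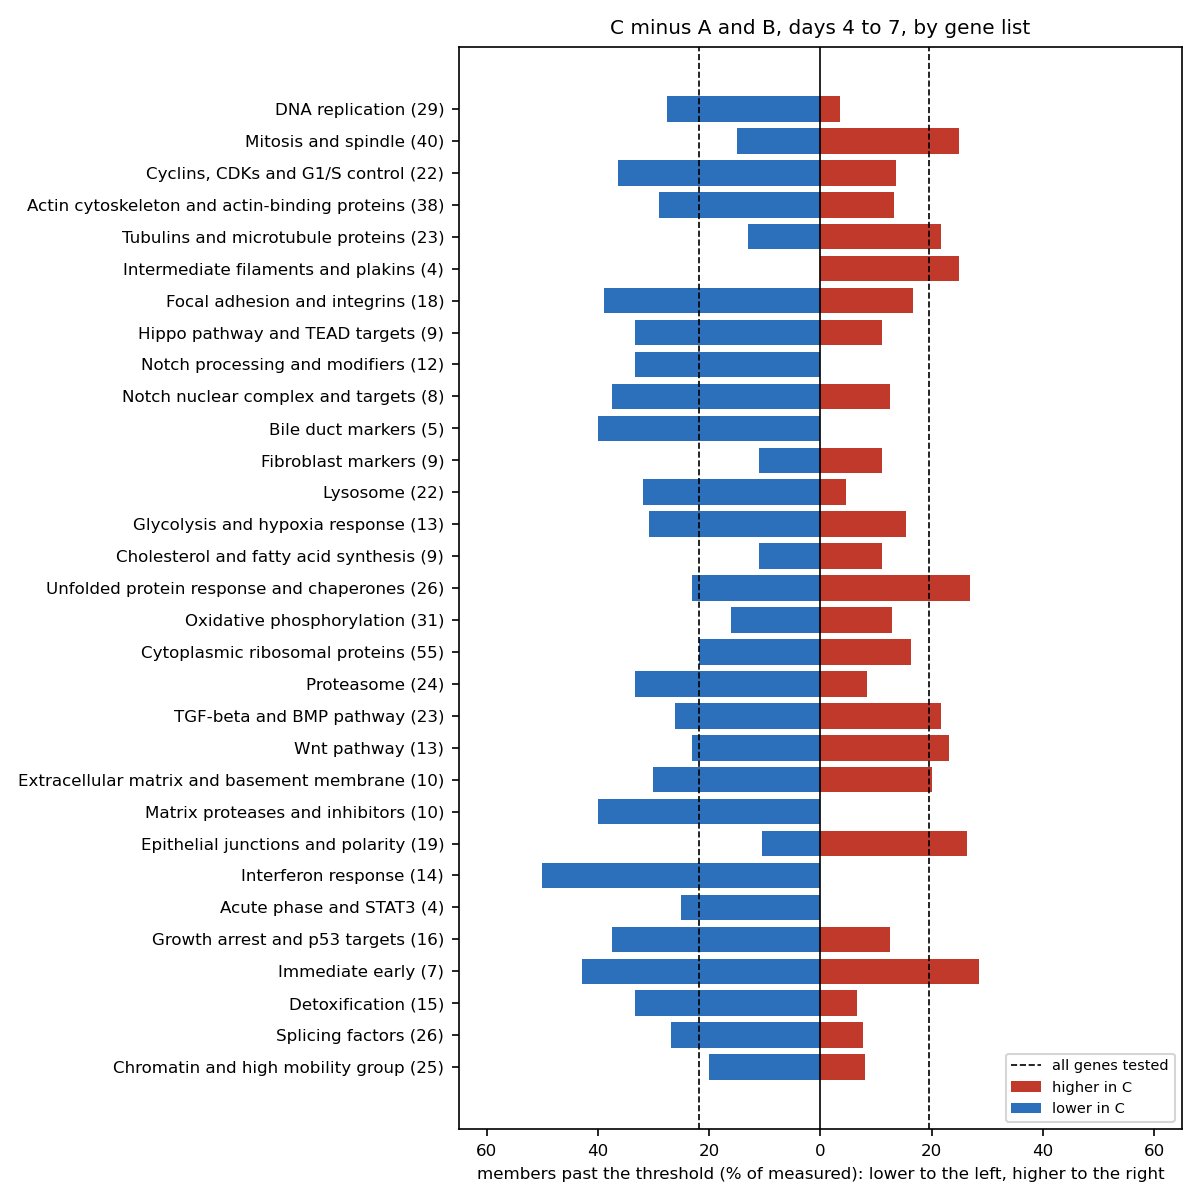
Share of tested members past the threshold (horizontal, percent of tested) for each list with 4 or more tested members, whose number stands in brackets, with members higher in late C to the right in red and lower to the left in blue. Dashed lines mark the shares over all genes tested, 19.6% higher and 21.9% lower, and the interferon list reaches farthest to the left with 7 of 14 genes lower.

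Markers of the cell types these cultures could hold were few on the array. Of 37 hepatocyte and hepatoblast markers 3 were tested and all 3 fell in late C, where 21.9% of all genes tested were called lower. Afp, alpha-fetoprotein of fetal liver, stood at 0.85, 0.45, -1.54 and 0.81 on C arrays, against 0.44 to 2.65 (median 1.93), a difference of -1.56 ± 0.49 (adjusted p = 0.0212). Its call was lost without array C of day 6 (-1.07), whose value lies far below the other 3, and without array C of day 5 (-1.66). H19, the imprinted fetal RNA, stood at 3.20, 2.76, 1.5 and 2.11 on C arrays, against 2.55 to 5.78 (median 4.19), a difference of -1.78 ± 0.44 (adjusted p = 0.00683). Against A arrays alone the differences were -0.81 for Afp and -1.01 for H19. The mean over Afp, H19 and Igf2 ranged from -0.39 to 1.78 on C arrays and from 1.31 to 3.55 on A and B arrays. In bulk RNA, fewer cells of a type and less RNA per cell cannot be told apart. Alb was not listed under its symbol. Among bile duct markers 2 of 5 tested genes fell (40% called, beside 41.5% of all genes), Bicc1 and the anion exchanger Slc4a2 (-1.37 ± 0.26). Krt19 had too few values.

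Fibroblast markers, which would also mark feeder cells, gave 1 rise and 1 fall among 9 tested (22.2% called, beside 41.5% of all genes). Their mean per array ranged from 0.33 to 1.13 on C arrays, -0.06 to 1.04 on A and B arrays and 0.33 to 1.39 on days 1 to 3, so the groups overlapped, and the part of fibroblasts in the differences was not tested. Col6a2, a collagen VI chain, fell (-1.11), a call lost without array C of day 4 (-0.91). Dcn, decorin, stood at 3.18 to 3.83 on C arrays and 0.98 to 4.37 on A and B arrays and did not pass (0.60 ± 0.42, adjusted p = 0.268). The only endothelial marker tested, Cdh5, rose by 1.00 ± 0.25, a call lost without array C of day 5 (0.79). Blood cell markers (3 tested) averaged 0.68 to 0.94 on C arrays and 0.22 to 1.10 on A and B arrays. The tested smooth muscle markers, Smtn and Mylk, averaged -1.38 to -0.19 on C arrays and -0.18 to 0.76 on A and B arrays. Mylk, myosin light chain kinase, stood at -1.29, -0.76, -0.06 and 0.64 on C arrays, against 1.01 to 2.38 (median 1.24), a difference of -1.78 ± 0.24 (adjusted p = 0.000184).

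A pair of secreted proteins, above undifferentiated cells on every late array, stood higher still on C arrays. Selenop, the selenium carrier made by hepatocytes, stood at 4.96, 4.82, 4.54 and 5.61 on C arrays, against 3.18 to 4.09 (median 3.66), a difference of 1.31 ± 0.20 (adjusted p = 0.000471). Clu, the chaperone clusterin, stood at 6.79, 6.88, 6.55 and 6.62 on C arrays, against 4.59 to 6.31 (median 5.75), a difference of 1.10 ± 0.30 (adjusted p = 0.0124). Clu averaged 5.08 on A and 6.15 on B arrays, an A minus B difference of -1.06. Both rises depended on the scaling: with arrays scaled Selenop differed by 0.02 and Clu by -0.55, neither called. With quantile normalization Selenop stayed called and Clu did not. Clu also lost its call without array C of day 5 (1.04) or day 7 (1.03).

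Interferon response genes fell in 7 of 14 cases with 0 rises (median -0.64). The share called was 50%, all lower, where 21.9% of all genes tested were lower and 41.5% called. Bst2 and Ifitm2, a membrane protein that restricts virus entry, led the falls. Ifitm2 stood at -1.09, -1.68, -1.39 and -1.93 on C arrays, against 0.31 to 1.23 (median 0.87), a difference of -2.29 ± 0.19 (limma, adjusted p = 1.58e-05). Ifitm2 lay below 0 on every late C array and above 0 on every late A and B array and on days 1 to 3 (0.40 to 1.56). On day 0 it stood at 0.43, 0.19 and 0.28, which overlapped the late A and B arrays. Among proteases and inhibitors of the matrix 4 of 10 fell and 0 rose (40% called, near the share of all genes). Timp2, a metalloprotease inhibitor, differed by -2.82 ± 0.29, although its 2 features gave -3.97 and -0.87. Of 13 genes of glycolysis and the hypoxia response 4 fell and 2 rose (median 0.09, 46.2% called), with falls of Gapdh, glyceraldehyde-3-phosphate dehydrogenase (-1.95), and of Tpi1, triose phosphate isomerase (-2.04). Gapdh stood at -2.99 to -1.67 on C arrays and -1.13 to 0.00 on A and B arrays, and its many pseudogenes make its features less certain. Of 15 detoxification genes 5 fell and 1 rose (median -0.11, 40% called). Gpx4, which reduces lipid peroxides, fell (-2.31), as did Hmox1, heme oxygenase (-1.75). Hmox1 stood at -2.20 on array C of day 5 and 0.50 to 0.95 on the other C arrays, and without that array it differed by -1.01.

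Of 55 ribosomal protein genes 9 rose and 12 fell (median 0.08, 38.2% called), with Rps14 and Rpl8 each at -1.19, which, like other ribosomal protein genes, have processed pseudogenes that may share their features. Of 24 proteasome genes 8 fell and 2 rose (41.7% called), and of 22 lysosomal genes 7 fell and 1 rose (36.4%), shares near or below the 41.5% of all genes. Of 26 chaperone and unfolded protein response genes 7 rose and 6 fell (50% called). Hspa5 (BiP) differed by 1.24 ± 0.34 and Calr, calreticulin, by -1.43 ± 0.34, both lumenal proteins of the endoplasmic reticulum. Hspa5 averaged 0.14 on A, -1.04 on B and 0.79 on C arrays, with an A minus B difference of 1.18. In the TGF-beta and BMP list 5 rose and 6 fell of 23 (47.8% called). Tgif1, a repressor of SMAD targets, differed by -2.03 ± 0.27 and Id2, a BMP target, by -1.66 ± 0.30. The only 1 of the 2 Id2 features with enough values to test alone gave -3.06. In the Wnt list 3 rose, led by Fzd1, and 3 fell of 13 (46.2% called), led by Csnk1e, a casein kinase, at -1.75 ± 0.31. Of 19 junction and polarity genes 5 rose and 2 fell (36.8% called). Immediate early genes gave 3 falls and 2 rises among 7 tested (71.4% called, beside 41.5% of all genes). Growth arrest and p53 target genes gave 6 falls and 2 rises among 16 (median -0.04, 50% called). Oxidative phosphorylation genes gave 5 falls and 4 rises among 31 (median 0.03, 29% called).

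Features that represent the same gene gave a check within the arrays. For 1603 genes with 2 or more tested features, the C difference of the first 2 features correlated at 0.484 (Pearson, across genes, as a description), against 0.587 for the difference of A and B arrays. Where both of the first 2 were called, 366 of 425 pairs (86.1%) had the same sign. In 100 genes (6.24%) features were called in opposite directions, and of 642 called genes with 2 or more features 63 (9.81%) had a feature on the other side of 0.

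The sign of the C difference also moved with the length of the gene on the genome. The tested genes were put into 5 bins of equal size by span (annotated start to end, introns included, GRCm38.p6). The median difference was -0.22 in the bin of the shortest genes (up to 8.68 kb), then -0.13, 0.02 and 0.11, and 0.18 in the bin of the longest (over 66.2 kb). Among the shortest genes 10.1% were called higher and 31.7% lower in late C, and among the longest 29.0% higher and 15.3% lower. The Spearman correlation of span with the difference was 0.221 across 5257 genes. It was 0.148 for A minus B late and 0.205 for C minus A and B on days 1 to 3, where 0 units passed. Its part in the gene list results was not tested. Promoter GC content, known for 4312 of 5262 genes, correlated at 0.013.

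**Figure D5:**
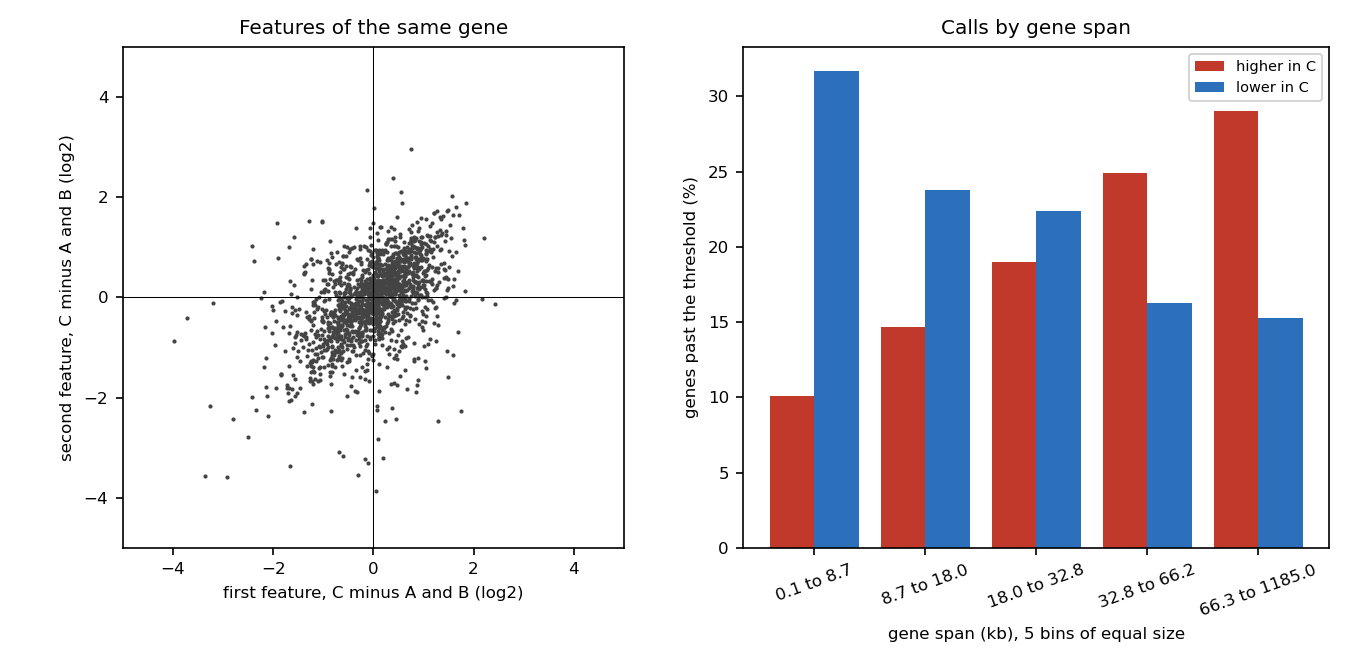
Left, the difference of late C minus A and B arrays (log2) for the first against the second feature of each of 1603 genes, 1 point per gene. Right, percent of genes called higher (red) or lower (blue) in late C in 5 bins of gene span in kb. Calls run from 10.1% higher and 31.7% lower among the shortest genes to 29.0% higher and 15.3% lower among the longest.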

How the data were processed

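The authors deposited 1 table of log ratios for 24 arrays, read here as log2 ratios of Cy5 (sample) over Cy3 (reference), per the labels' dyes. The sources used here give neither its base and numerator nor the scanner, background correction, normalization or reason for empty cells. All columns were used, leaving 0 out. Column medians as deposited lay between -0.0253 and 0.0295. Of 24157 features 13319 had 1 gene symbol in the platform annotation, 589 had several and 10249 were not listed; 13290 symbols were updated through Entrez identifiers (GRCm38.p6 tables), which gave 8315 symbols. Each array was centred on its median, and features of a symbol were averaged. Units needed a value on 3 of 4 late arrays of each letter (2 of 3 for early days). Means were fitted with limma 3.58.1 (R 4.3.3; lmFit, eBayes, 2-sided) with day as a block, and p-values adjusted by Benjamini-Hochberg over all units at 0.05. Same-day arrays share a block because the labels give them the same day; a day or letter number pairs nothing else.

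The study's members, lists and rules were chosen with earlier results of these data known. Genes named are the 10 largest rises and 10 largest falls with values on all 12 arrays and no overlap, up to 4 called members of each proliferation, cytoskeleton and Notch list and 2 of each other list, and 26 fixed genes, 12 of which were tested. One list of cytoskeletal genes is not reported here. Some of these are given in counts only, and Smtn, Igf2, Ube2c, Ncstn and Aph1b are named outside this rule after their values were seen. On simulated data for this contrast (9471 units, 200 changed), 57% of changes of size 1 and 94% of size 2 were recovered, with 8 false calls. In the data 42.1% of units were called, a far larger share than was changed there. The adjusted p depends on that share, so these figures need not hold for the data. Alternatives covered centring, scaling, filters, averaging, the day block, letters, days and each array left out. The number of arrays limits the precision, with a median SE of 0.213.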

Additional observations from a re-analysis of the deposited data

Results flagged for a closer look

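Among the genes named, 77 could be compared between the late and the early days, and for 66 of them the C difference of days 4 to 7 differed from that of days 1 to 3 (interaction in limma, adjusted p under 0.05). Upward, the late minus early change of the C difference (log2) was largest in Mki67 (2.73), Mccc1 (2.13), Fzd1 (2.09), Sgo1 (1.99), Pgrmc1 (1.89), Iars2 (1.88), A930006K02Rik (1.78) and Phf14 (1.76). It was also upward in Pxylp1 (1.69), Clu (1.60), Ep300 (1.5), Selenop (1.37), Ncapg (1.35), Katna1 (1.22), Top2a (1.21), Dync1h1 (1.18), Macf1 (1.07), Cdh5 (0.99) and Hes6 (0.92). Downward, it was largest in Nek6 (-4.46), Hdgf (-3.29), Ptges3 (-3.28), Cuedc2 (-3.26), Raly (-3.15), Adgra2 (-3.09), Timp2 (-2.96), Bicc1 (-2.92), Bst2 (-2.90) and Cyba (-2.89). Values between -2.87 and -1.98 were found in Ybey (-2.87), Ifitm2 (-2.40), Actb (-2.32), Cdk4 (-2.26), Cfl1 (-2.26), Dstn (-2.23), Actn1 (-2.21), Gpx4 (-2.0), Tubb5 (-2.0), Tfdp1 (-1.99) and Tgif1 (-1.98). Those from -1.89 to -1.49 were found in Zyx (-1.89), Csnk1e (-1.85), Gapdh (-1.82), Itga3 (-1.81), Hmox1 (-1.72), Aph1a (-1.64), Id2 (-1.63), Mylk (-1.62), Tk1 (-1.60), Pxn (-1.56), Psen2 (-1.54), Tpi1 (-1.5) and Aurka (-1.49). The remaining downward changes were in Itgb1 (-1.31), Adam10 (-1.31), Rps14 (-1.21), Myc (-1.17), Rnaseh2a (-1.16), Rpa3 (-1.13), Rpl8 (-1.06), Mcm2 (-1.02), Ctbp1 (-0.93), Tubb6 (-0.92), Spen (-0.91), Cks2 (-0.81) and Amotl1 (-0.72).

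Of 157 groups of values (the 4 late C arrays or the late A and B arrays of a named gene), 17 had 1 array far from the others by Dixon's criterion, which chance alone would give in about 1 of 20 groups. In 11 of them the far array was B of day 6, the array that also correlated least with the others. It lay below the other A and B arrays in Cdk4 (-0.71, next 0.18), Csnk1e (-1.08, next -0.03), Dstn (-2.79, next -1.25), Hdgf (-1.52, next -0.55), Itgb1 (-1.09, next -0.35), Katna1 (-0.66, next -0.06) and Tubb5 (-1.29, next -0.70). It lay above them in Adam10 (0.77, next -0.46), Ep300 (1.01, next -0.17), Mccc1 (1.61, next 1.03) and Ptges3 (1.46, next -0.68). Array C of day 6 lay far from the other late C arrays for Afp (-1.54, next 0.45), Tfdp1 (-2.91, next -1.94) and Hspa5 (1.14, next 0.69). Array C of day 5 did so for Hmox1 (-2.20, next 0.50) and array C of day 7 for Tk1 (-3.70, next -3.08). Array B of day 7 was far above the other A and B arrays for Mylk (2.38, next 1.60).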

How the results depend on the processing

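Over all settings that kept days 4 and 5 and all 4 late C arrays, 2983 to 5037 units were called in late C against A and B. Days 6 and 7 alone gave 184 calls (35 higher, 149 lower). Days 4 and 5 alone, with as many arrays, gave 3455 (1520 higher, 1935 lower). Leaving out 1 array gave 2506 to 4708 calls (1072 to 2152 higher, 1410 to 2556 lower). Dropping the replicate block of day gave 4244 calls, 3923 of them shared with the 3984, with the same sign. Late A against B, with 14 calls (6 higher, 8 lower), gave 197 (108 and 89) with arrays scaled, 486 (269 and 217) with quantile normalization and 793 (348 and 445) without day 6, a setting added after the data were seen, as was leaving out day 6 or array B of day 6 for C against A and B. Leaving out 1 array it gave 0 to 793 calls (0 to 348 higher, 0 to 445 lower). Early C against A and B gave 1 call, lower, with arrays scaled and 1, lower, with quantile normalization. The late minus early difference gave 1383 calls (597 upward, 786 downward) with arrays scaled and 1499 (745 and 754) with quantile normalization, against 2606.

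List medians moved with scaling, with the letter compared and with the filter. With arrays scaled and with quantile normalization they were 0.09 and 0.12 for DNA replication, 0.22 and 0.31 for mitosis, -0.03 and 0.09 for cyclins, -0.10 and -0.07 for actin, -0.08 and -0.06 for focal adhesions and -0.05 and -0.06 for Hippo. Against A arrays alone they were -0.22 for DNA replication, -0.60 for focal adhesions and -0.27 for Notch nuclear factors. Against B arrays alone they were -0.15 for actin, 0.06 for focal adhesions and 0.09 for Hippo. With days 4 and 5 only, mitosis stood at 0.22. With a value on all 12 arrays, which tests fewer genes, intermediate filaments stood at -0.29, Notch processing at -0.65 and Notch nuclear factors at -0.41. Leaving out 1 array, the median ranged from -0.21 to -0.04 for DNA replication and -0.43 to -0.15 for focal adhesions. The tubulin median did not move beyond its spread between days. Of 107 genes that the rule or the text names, 102 were called and 33 stayed called in every setting tried. Days 6 and 7 alone lost most of the others. The fit of days 4 and 5 alone had as many arrays and gave 3455 calls over all units, against 184. Among the called genes Clu alone changed sign (-0.55 with arrays scaled). Among those not called, the ranges over settings crossed 0 for Actg1 (-1.03 to 0.13), Adam17 (-0.35 to 0.10) and Dcn (-0.31 to 0.84). The causes of these changes were not tested.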
